A study of Homo sapiens with 6 samples.

Results

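The Notch signalling genes described here are 10 of the 58735 rows of a count table from RD cells, an established cell line of embryonal rhabdomyosarcoma (ERMS), a childhood tumor with features of skeletal muscle. They are the receptors NOTCH1, NOTCH2 and NOTCH3, the ligands JAG1, JAG2 and DLL1, and the HES and HEY family genes HES1, HEY1, HEYL and HES6. A row was taken where its gene symbol equalled a listed name. Each of the 10 symbols was found once, and all 10 passed the filter on low counts, as did 15935 rows in all. RD cells were transduced with lentivirus carrying scrambled shRNA (control, n = 3) or TAK1 shRNA (n = 3), and poly(A)-enriched RNA was sequenced from each culture. The comparison asks which Notch genes differ in mRNA level when TAK1, the kinase encoded by MAP3K7, is silenced. Per the study's results section a single TAK1 shRNA construct was used for RNA-seq, so silencing of TAK1 and other effects of that construct cannot be told apart. The labels do not say whether the 3 samples of a group came from separate transductions, so p-values measure the spread between these samples. In bulk RNA, fewer cells expressing a gene and less RNA per cell cannot be told apart.

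Notch receptors are cell surface proteins that are cleaved when a ligand on a neighbouring cell binds them. The released intracellular domain enters the nucleus, joins the DNA-binding protein RBPJ and Mastermind-like coactivators, and turns on HES and HEY genes, which encode basic helix-loop-helix repressors. In skeletal muscle, Notch signalling is known for holding progenitor cells in an undifferentiated state, and HES and HEY proteins counter the myogenic factor MYOD1. HES6 is the exception in the family, since its protein is known to antagonise HES1 and to favour differentiation.

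Promoter sequences of the 3 HES and HEY family members that were in RefSeq's promoter table for GRCh38.p14 are shown because their mRNAs went different ways: HES1 was lower, HES6 was higher and HEYL did not pass the test. Each run holds the 250 bases before the RefSeq transcription start, read 5′ to 3′ on the strand of the gene. Capitals mark matches to the core motif of RBPJ, TGGGAA, and to the class C E-box bound by HES proteins, CACGNG, on either strand, so that TTCCCA and runs such as CGCGTG are matches on the opposite strand. HES1 lies on the plus strand at chr3:194135898-194136147, HEYL on the minus strand at chr1:39639644-39639893, and HES6 on the minus strand at chr2:238240039-238240288.
HES1: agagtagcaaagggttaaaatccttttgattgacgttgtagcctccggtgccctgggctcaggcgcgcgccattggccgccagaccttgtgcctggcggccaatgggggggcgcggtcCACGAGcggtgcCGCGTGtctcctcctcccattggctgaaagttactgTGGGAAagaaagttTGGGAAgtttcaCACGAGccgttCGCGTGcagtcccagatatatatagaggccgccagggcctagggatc
HEYL: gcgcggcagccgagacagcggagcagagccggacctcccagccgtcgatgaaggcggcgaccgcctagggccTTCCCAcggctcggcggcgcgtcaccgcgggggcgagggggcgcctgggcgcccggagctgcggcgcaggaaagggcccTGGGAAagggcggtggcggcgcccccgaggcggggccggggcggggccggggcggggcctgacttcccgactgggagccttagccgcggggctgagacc
HES6: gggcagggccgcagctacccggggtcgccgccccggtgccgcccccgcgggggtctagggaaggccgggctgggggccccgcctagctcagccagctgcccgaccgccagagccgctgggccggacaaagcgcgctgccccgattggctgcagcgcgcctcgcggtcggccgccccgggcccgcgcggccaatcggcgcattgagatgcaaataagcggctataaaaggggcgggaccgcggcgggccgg

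The HES1 window held 2 RBPJ cores, the first bases of which lay at -84 and -70 from the start, and 4 class C E-boxes, at -132, -120, -58 and -47. HEYL held 2 RBPJ cores, at -178 on the opposite strand and at -99, and 0 class C E-boxes. HES6 held 0 of each motif. No match overlapped another. The background was 35116 promoter windows of 300 bases, from 250 before to 50 after the start. Of these, 24.0% held at least 1 RBPJ core and 3.80% held at least 2. For the class C E-box, 30.5% held at least 1 and 8.16% held at least 2. Windows were found for 8 of the 10 genes. NOTCH1 held neither motif, NOTCH2, NOTCH3 and JAG1 held 1 class C E-box each, and JAG2 held 2. The NOTCH2 window, at chr1:120069613-120069912, lies inside the longer GENCODE span of this minus-strand gene, which reaches 120100779. These are letter matches and were not tested for binding.

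Of the 10 genes, 3 rose (DLL1, HES6 and NOTCH1), 1 fell (HES1) and 6 did not pass the call. A gene was called where the quasi-likelihood test of edgeR gave a p under 0.05 after Benjamini-Hochberg adjustment over all genes tested and where the log2 fold change was 0.25 or more in size. Across all 15935 genes tested, 11.8% were called higher and 11.3% lower, which makes 4 calls among 10 genes with a background of 23.1% called. The median log2 fold change was 0.061 over the 10 genes and 0.018 over all genes tested. For 6 of the 10 genes the 3 cultures with TAK1 shRNA did not overlap the 3 control cultures, and the same held for 43.9% of all genes tested. Among the 8076 genes at least as abundant as the least abundant of the 10, the shares were 11.0% called higher, 15.8% called lower and 56.0% without overlap. Levels of a gene are given as CPM, its counts relative to the library total after TMM scaling, and a log2 fold change is TAK1 shRNA against control, with its standard error (SE) or 95% interval.

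The depth and identity of the cultures were as follows. Total counts ran from 28839898 to 34469323 per culture. MAP3K7, the targeted gene, was at 77.9, 76.5 and 77.6 CPM in the control cultures and at 30.5, 33.6 and 29.9 CPM in the TAK1 shRNA cultures, a log2 fold change of -1.30 (SE 0.062, adjusted p = 4.451e-14). The muscle lineage markers MYOD1, MYOG, DES, CHRNA1 and PAX7 were present in every culture at 125 CPM or more, whereas MYF5 had 0 counts in each, which allows up to 3 counts per library. MYOD1 rose from 263 ± 8.03 to 339 ± 16.7 CPM (SD, n = 3) and MYOG from 141 ± 6.07 to 170 ± 7.85 CPM, while CHRNA1 fell from 921 ± 11.5 to 700 ± 2.33 CPM. The whole list of 8 markers of other cell types (PTPRC, CD3E, CD68, PECAM1, CDH5, EPCAM, CDH1 and ALB) was under the filter on low counts, with at most 15 counts in a culture and with CD3E, CDH5 and CDH1 at 0 in all 6. The part of the muscle markers in the Notch results was not tested.

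**Figure D1:**
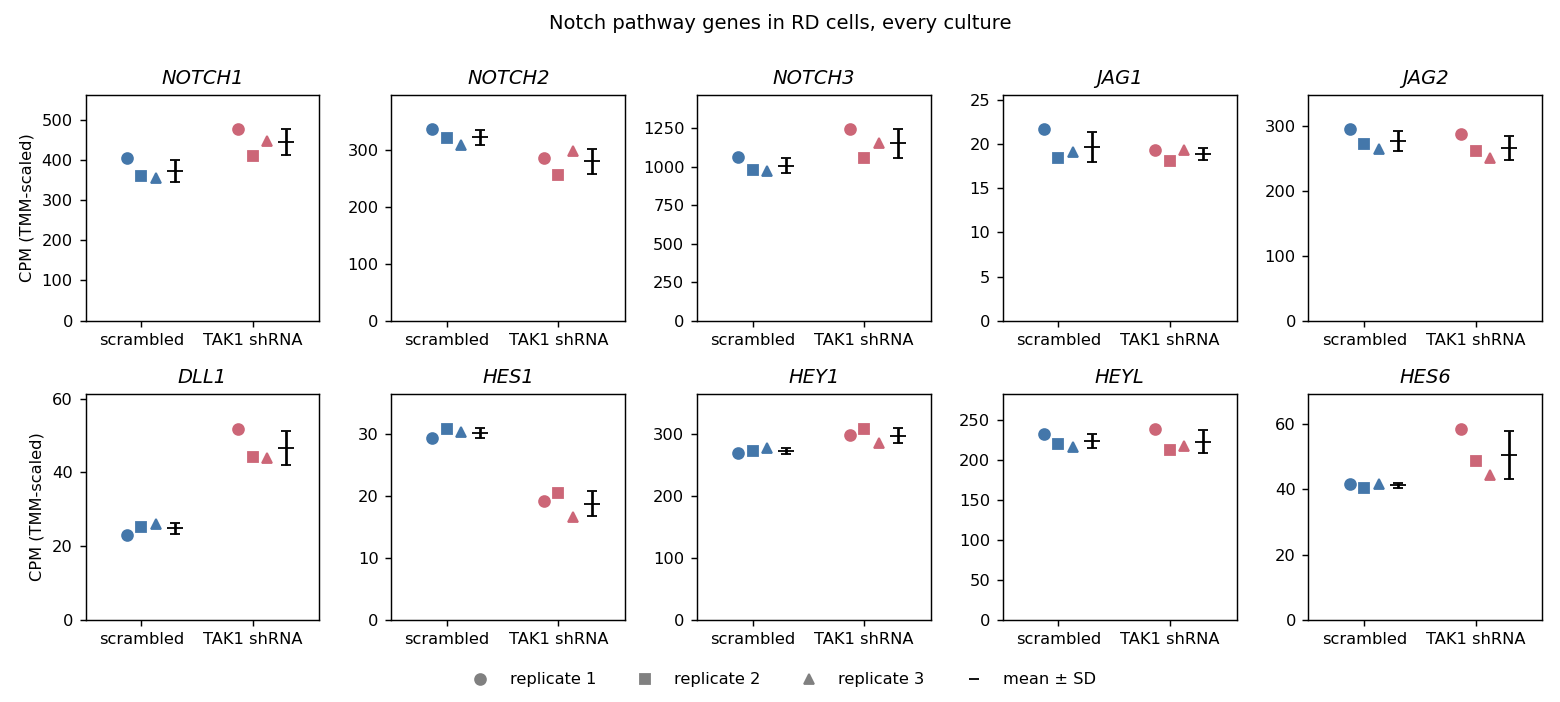
Level of each of the 10 Notch genes in every culture (y axis, CPM with TMM scaling, starting at 0; x axis, scrambled shRNA and TAK1 shRNA; symbols, replicates 1 to 3; bars, mean ± SD, n = 3). DLL1 stood between 43.9 and 51.8 CPM with TAK1 shRNA against 23.1 to 25.9 in control cultures, and HES1 between 16.6 and 20.4 against 29.3 to 30.8, while JAG1, JAG2 and HEYL overlapped.

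Among the receptors, NOTCH1 was higher, NOTCH2 lower and NOTCH3 higher in mean level, and NOTCH1 alone reached the fold threshold. NOTCH1 (ENSG00000148400.13, chr9:136494433-136546048, minus strand, GRCh38) encodes a receptor with roles in many kinds of progenitor cell. It was at 405, 361 and 354 CPM in the control cultures and at 475, 410 and 446 CPM in the TAK1 shRNA cultures. The lowest TAK1 shRNA culture stood just above the highest control culture, so the groups did not overlap. The log2 fold change of NOTCH1 was 0.25 (95% interval 0.14 to 0.36, adjusted p = 0.0007146), which lies at the threshold itself. It was under 0.25 without scrambled replicate 2 (0.23), scrambled replicate 3 (0.21), TAK1 shRNA replicate 1 (0.20) or TAK1 shRNA replicate 3 (0.24), and also with DESeq2 (0.246), with DESeq2's size factors in edgeR (0.246) or without the filter on low counts (0.245).

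NOTCH2 (ENSG00000134250.21, chr1:119911553-120100779, minus strand), a receptor with a role in muscle stem cells, was at 336, 322 and 309 CPM in control cultures and at 286, 256 and 298 CPM in TAK1 shRNA cultures. The groups did not overlap, with 309 CPM in the lowest control culture and 298 CPM in the highest TAK1 shRNA culture. Its log2 fold change was -0.20 (95% interval -0.31 to -0.095), with an adjusted p of 0.003603, and the gene was not called because of the fold threshold. Without TAK1 shRNA replicate 3 the value was -0.26 and passed. Reads of NOTCH2 could be shared with copies of it elsewhere in the genome. NOTCH2NLA was at 1.29 ± 0.405 CPM in control and 1.04 ± 0.167 CPM in TAK1 shRNA cultures (n = 3 each). NOTCH2P1, a processed pseudogene of 624 bases, was at 0 counts in all 6. NOTCH2NLB, NOTCH2NLC and NOTCH2NLR had no row under these names, so how many reads were shared is not known.

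NOTCH3 (ENSG00000074181.9, chr19:15159038-15200995, minus strand), a receptor also known from vascular smooth muscle, had the highest CPM of the 10 genes. It was at 1061, 980 and 974 CPM in control cultures and at 1241, 1056 and 1155 CPM in TAK1 shRNA cultures. TAK1 shRNA replicate 2 lay just under scrambled replicate 1, so the groups overlapped. The log2 fold change was 0.20 (95% interval 0.093 to 0.30) with an adjusted p of 0.003397, under the fold threshold. Without TAK1 shRNA replicate 2 it was 0.25 and passed.

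Among the ligands, DLL1 rose by the most of the 10 genes, while the groups overlapped for both Jagged genes. DLL1 (ENSG00000198719.9, chr6:170282206-170306565, minus strand), a Delta-family ligand that in muscle development is known for maintaining progenitors, was at 23.1, 25.3 and 25.9 CPM in control cultures. In the TAK1 shRNA cultures it was at 51.8, 44.1 and 43.9 CPM, so every one of them was above every control culture. The ratio of the means was 1.88 and the log2 fold change 0.91 (SE 0.076, adjusted p = 8.392e-10). The value ran from 0.83 to 0.96 over 14 alternative settings, and DLL1 was called in each. Of the 3819 exonic bases of DLL1, 370 overlap FAM120B on the opposite strand. FAM120B, named after its values were seen, was at 63.9 ± 1.15 CPM in control and 72.4 ± 2.69 CPM in TAK1 shRNA cultures (n = 3 each), a log2 fold change of 0.18.

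JAG1 (ENSG00000101384.12, chr20:10637684-10673999, minus strand), a ligand of the Serrate family, was the least abundant member per length. It was at 21.7, 18.4 and 19.1 CPM in control cultures and at 19.3, 18.1 and 19.3 CPM in TAK1 shRNA cultures, on 565 to 638 counts per culture. The groups overlapped, and the log2 fold change was -0.061 (95% interval -0.23 to 0.11, adjusted p = 0.6312). The sign of this value turned without scrambled replicate 1.

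JAG2 (ENSG00000184916.9, chr14:105140982-105168824, minus strand), the related ligand, was at 295, 272 and 265 CPM in control cultures and at 288, 262 and 252 CPM in TAK1 shRNA cultures. The groups overlapped, and the log2 fold change was -0.055 (95% interval -0.16 to 0.052, adjusted p = 0.4591). The upper ends of the intervals for JAG1 and JAG2, 0.11 and 0.052, were under the lower end of that for DLL1, 0.75. JAG1 shares 306 exonic bases with an annotated gene on the opposite strand, and JAG2 shares 469 with an annotated gene on the same strand.

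The HES and HEY genes did not move as a group. HES1 fell, HES6 rose, and HEY1 and HEYL did not pass the call. HES1 (ENSG00000114315.4, chr3:194136148-194138732, plus strand), the repressor best known as a direct Notch target and the gene with 2 RBPJ cores close to its start, was at 29.3, 30.8 and 30.3 CPM in control cultures. In TAK1 shRNA cultures it was at 19.2, 20.4 and 16.6 CPM, on 548 to 722 counts. The control cultures lay close together, and all 3 TAK1 shRNA cultures were well below them. HES1 was at 0.622 of the control mean, a log2 fold change of -0.69 (SE 0.081, adjusted p = 3.048e-07). It ran from -0.76 to -0.61 over 14 alternative settings, and HES1 was called lower in each. The annotation shows no exon of another gene over HES1.

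HEYL (ENSG00000163909.8, chr1:39623435-39639643, minus strand), a HEY family repressor known as a Notch target in smooth muscle, was at 233, 220 and 216 CPM in control cultures and at 239, 212 and 218 CPM in TAK1 shRNA cultures. The TAK1 shRNA cultures spanned the range of the control cultures. The log2 fold change was -0.0015 (95% interval -0.10 to 0.10, adjusted p = 0.9868), and its sign changed with the normalization. The window before HEYL shown above also held 2 RBPJ cores, the same number as HES1.

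HEY1 (ENSG00000164683.19, chr8:79762371-79767857, minus strand), a repressor of the same family, was at 269, 272 and 279 CPM in control cultures and at 299, 309 and 286 CPM in TAK1 shRNA cultures. The groups did not overlap, and the log2 fold change was 0.12 (95% interval 0.032 to 0.22) with an adjusted p of 0.03418. The upper end of that interval is under the fold threshold. The adjusted p ran from 0.003999 to 0.150 over the alternative settings.

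HES6 (ENSG00000144485.11, chr2:238238267-238240662, minus strand), the family member that antagonises HES1 as a protein, was at 41.7, 40.4 and 41.7 CPM in control cultures and at 58.6, 48.6 and 44.4 CPM in TAK1 shRNA cultures. The groups did not overlap, but the TAK1 shRNA cultures were widely spread, with a coefficient of variation of 14.5% against 1.76% in control cultures. HES6 rose by a log2 fold change of 0.29 (SE 0.077, adjusted p = 0.004678). Without TAK1 shRNA replicate 1, its highest culture, the value was 0.17 with an adjusted p of 0.0446, and the gene was no longer called. The RefSeq start used for the window shown above lies inside the longer GENCODE span of HES6.

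**Figure D2:**
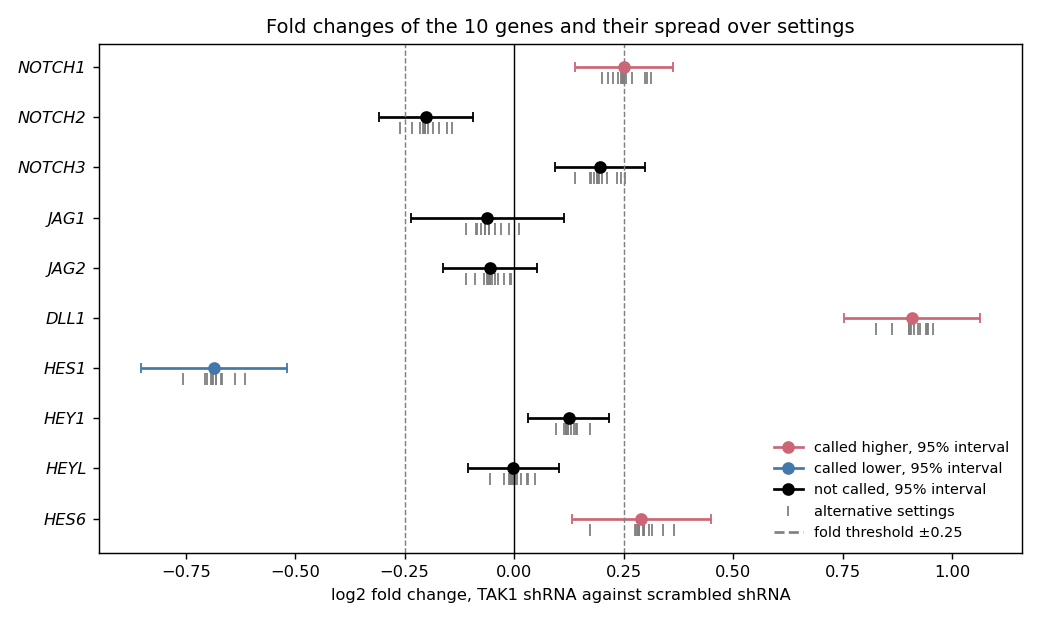
Log2 fold change of each Notch gene, TAK1 shRNA against scrambled shRNA (x axis; points, edgeR estimate with 95% interval; grey ticks, 14 alternative settings; dashed lines, the fold threshold of 0.25 in each direction). DLL1 at 0.91 and HES1 at -0.69 lay clear of the thresholds with every tick, whereas those of NOTCH1, NOTCH3 and HES6 fell on both sides of 0.25 and those of NOTCH2 on both sides of -0.25.

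Ratios between 2 Notch genes within a culture do not depend on the scaling between libraries. The log2 ratio of HES6 to HES1 was 0.51, 0.39 and 0.46 in control cultures and 1.61, 1.25 and 1.42 in TAK1 shRNA cultures, a difference of 0.97. HES6 counts thus exceeded HES1 counts in every culture, and by more in every TAK1 shRNA culture. The log2 ratio of HEY1 to HES1 had a mean of 3.18 ± 0.033 (SD, n = 3) in control and 4.00 ± 0.098 in TAK1 shRNA cultures, and that of HEYL to HES1 had a mean of 2.89 ± 0.090 and 3.58 ± 0.18. Among the ligands, the log2 ratio of DLL1 to JAG1 was 0.093, 0.46 and 0.44 in control cultures and 1.42, 1.29 and 1.19 in TAK1 shRNA cultures. For JAG2 to JAG1 it was 3.82 ± 0.062 and 3.82 ± 0.10, and the groups overlapped. Among the receptors, the log2 ratio of NOTCH2 to NOTCH3 was -1.64 ± 0.029 in control and -2.04 ± 0.083 in TAK1 shRNA cultures, with no overlap, and that of NOTCH1 to NOTCH3 differed by 0.058. For 6 of the 7 ratios the groups did not overlap and the two-sided exact permutation test gave p = 0.1, the smallest that 3 against 3 allows, and 0.117 after Benjamini-Hochberg adjustment over the 7. For JAG2 to JAG1 the exact p was 1. None of these ratios can therefore pass a threshold of 0.05 by this test. The ratios are not independent, since several share HES1, JAG1 or NOTCH3. Of single genes tested, 43.9% did not overlap between the groups, and the share over other gene pairs was not computed. For NOTCH1 to NOTCH3 the gap was narrow, with -1.38 in the lowest TAK1 shRNA culture and -1.39 in the highest control culture.

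**Figure D3:**
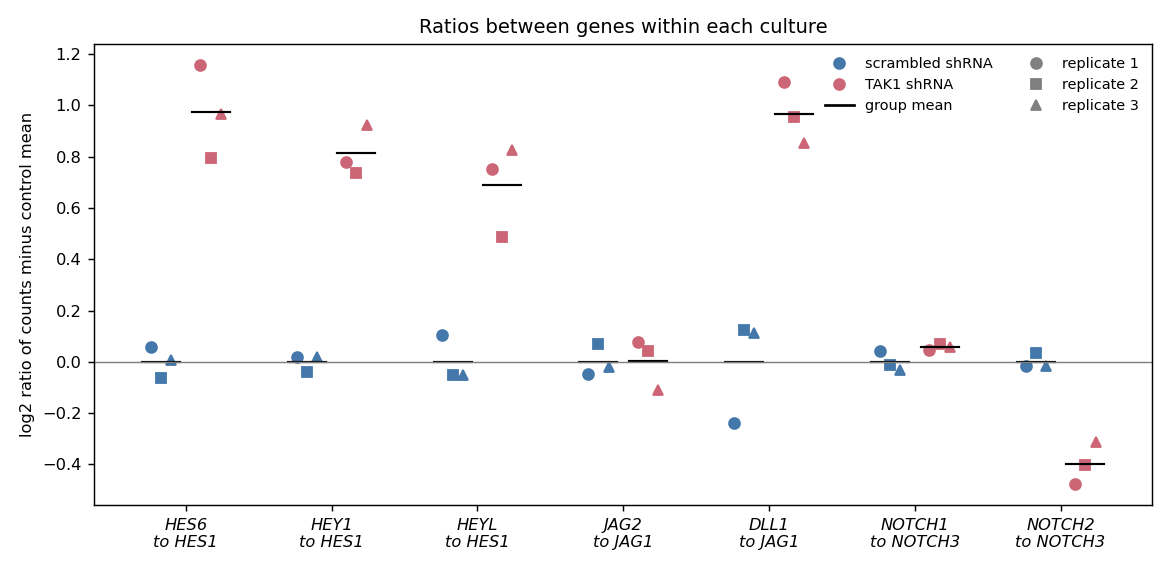
Log2 ratio of the counts of 2 Notch genes in each culture, with the mean of the control cultures subtracted (y axis; blue, scrambled shRNA; red, TAK1 shRNA; symbols, replicates 1 to 3; black lines, group means). All 3 TAK1 shRNA cultures lay above the control cultures for the 3 ratios over HES1 and for DLL1 to JAG1, and below them for NOTCH2 to NOTCH3.

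Levels of different genes were compared as CPM per kilobase of merged exons in GENCODE 44. In control cultures the order was NOTCH3 (107 ± 5.16 CPM per kilobase, SD, n = 3), HEYL (54.7 ± 2.10), HEY1 (49.8 ± 0.877), JAG2 (43.4 ± 2.47), NOTCH1 (29.8 ± 2.20), HES6 (21.1 ± 0.371), NOTCH2 (19.2 ± 0.817), HES1 (14.6 ± 0.389), DLL1 (6.49 ± 0.389) and JAG1 (2.12 ± 0.185). The ranges of neighbours in this order did not overlap. In TAK1 shRNA cultures DLL1 (12.2 ± 1.19) stood above HES1 (9.10 ± 0.951), the opposite of the control cultures, and the other 8 genes kept their places. There, HEYL and HEY1 overlapped in range. The place of HEY1 depends on the length used. Its merged exons span 5487 bases as 1 block, which is the whole gene, introns included. With the canonical transcript of 2197 bases HEY1 came first, at 124 ± 2.19 CPM per kilobase in control cultures, before NOTCH3 at 116 ± 5.59. With that length the TAK1 shRNA ranges of 3 pairs of neighbours overlapped: HEY1 and NOTCH3, NOTCH1 (46.4 ± 3.39) and JAG2 (46.3 ± 3.20), and DLL1 (12.3 in mean) and HES1 (11.9 ± 1.24). The higher place of DLL1 over HES1 in TAK1 shRNA cultures was thus within the spread of the cultures with canonical lengths, and so was that of NOTCH1 over JAG2.

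The make-up of each gene class was computed per kilobase of merged exons, with NOTCH4, DLL3, DLL4 and the other HES and HEY genes added. NOTCH3 made up 68.5% ± 0.339 of the receptor mRNA per length in control cultures and 70.1% ± 0.444 in TAK1 shRNA cultures (n = 3 each). The share of NOTCH2 was 12.3% ± 0.245 and 9.59% ± 0.496, and that of NOTCH1 was 19.1% ± 0.407 and 20.3% ± 0.116. NOTCH4 was under 0.06% in every culture. Among ligands, DLL1 was 7.70%, 8.81% and 9.35% of the total in control cultures and 15.6%, 15.1% and 15.2% in TAK1 shRNA cultures. JAG2 was the most abundant ligand in every culture, at 57.5% ± 1.08 and 52.4% ± 1.05. DLL3, a ligand that acts within the cell, was at 31.0% ± 0.664 and 29.7% ± 0.907. Among HES and HEY genes, HES1 was 9.37% ± 0.386 in control and 5.57% ± 0.376 in TAK1 shRNA cultures, and HES6 was 13.5% ± 0.275 and 15.8% ± 1.33. The summed level per length was 156 ± 8.13 and 175 ± 13.4 CPM per kilobase for receptors, 75.5 ± 2.98 and 79.8 ± 6.42 for ligands, and 156 ± 2.57 and 163 ± 11.0 for HES and HEY genes. These shares are descriptions and were not tested, and parts of a total are not independent of each other.

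**Figure D4:**
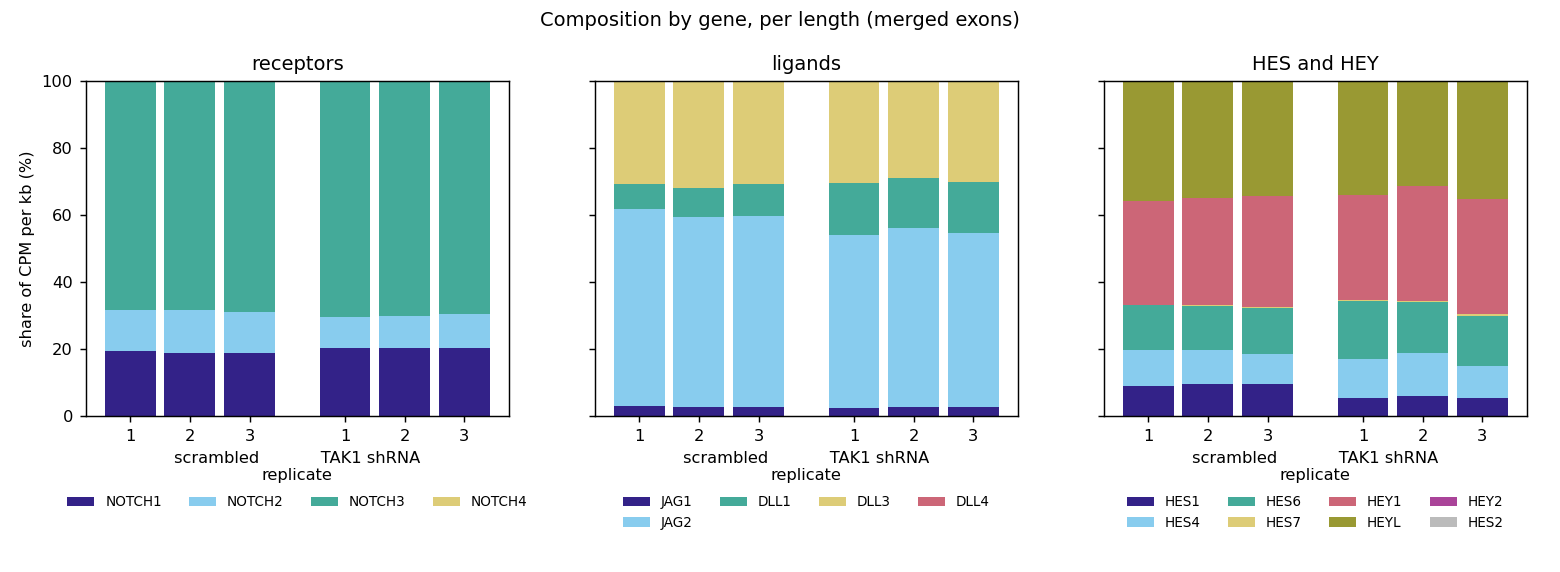
Share of each gene in the summed CPM per kilobase of merged exons of its class (y axis, percent; x axis, replicates 1 to 3 of scrambled shRNA and of TAK1 shRNA; panels, receptors, ligands, and HES and HEY genes). The DLL1 band was 15.1% to 15.6% with TAK1 shRNA against 7.70% to 9.35% in control cultures, and NOTCH3 was over 68% of the receptors in each.

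The rest of the pathway was read from 62 further genes listed by role, of which 56 passed the filter on low counts. Of these 56, 11 rose, 7 fell and 38 were not called, and 30 did not overlap between the groups, beside 43.9% of all genes tested and 56.0% of those at least as abundant as JAG1. The share called was 32.1%, beside 23.1% of all genes tested. Each role below holds only 3 to 11 tested genes, and no role was tested as a set. Among genes at least as abundant as JAG1, 11.0% were called higher and 15.8% lower. The median log2 fold change of the 56 was 0.049. With library size alone in place of TMM, 14 were called higher and 3 lower, and over all genes the share of calls that were higher moved from 51.0% to 62.9%. Scrambled replicate 3 also bore on the count, since 4 were called lower without it. Of the 18 genes called, 9 have exons that overlap another annotated gene (DLK2, ADAM17, PSEN2, POFUT1, RFNG, ITCH, FBXW7, MAML2 and NRARP). Genes that were not called, such as ADAM10, NCSTN, APH1A, NCOR1 and CTBP2, have such overlaps too, and their share was not computed. Whether counting used strand is not given in the sources used here.

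Among 5 other receptors and ligands tested, DLK2, an atypical ligand-like protein, rose from 9.27 ± 0.574 to 12.5 ± 0.892 CPM (n = 3), a log2 fold change of 0.44 (adjusted p = 0.001805). DLL3 was at 61.2 ± 2.48 and 62.1 ± 6.40 CPM. NOTCH4, DLL4 and DLK1 had at most 40 counts in a culture and were not called. Among the 9 genes of proteases that cut the receptor, 1 rose and 2 fell, beside 23.1% of all genes tested called in either direction. FURIN, which cuts the receptor on its way to the surface, rose from 89.3 ± 2.78 to 125 ± 9.69 CPM (log2 fold change 0.48, adjusted p = 2.041e-07). ADAM17, a sheddase, fell from 110 ± 4.41 to 91.1 ± 3.45 CPM (-0.27), and PSEN2, a catalytic subunit of gamma-secretase, fell from 26.1 ± 1.29 to 18.4 ± 1.48 CPM (-0.51). ADAM10, the main ligand-dependent protease, was at 68.3 ± 2.21 and 70.9 ± 4.63 CPM and was not called.

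Of 8 genes for sugar modification of the receptor, 1 rose and 2 fell, beside 23.1% of all genes tested called in either direction. POFUT1, which adds O-fucose, fell from 248 ± 2.65 to 200.3 ± 1.05 CPM (log2 fold change -0.31, adjusted p = 3.984e-06). EOGT, which adds O-linked N-acetylglucosamine, fell from 13.7 ± 1.29 to 9.30 ± 0.855 CPM (-0.56). RFNG, a Fringe enzyme that extends O-fucose, rose from 18.7 ± 1.68 to 22.6 ± 3.54 CPM (0.27, adjusted p = 0.03468), although its groups overlapped. Of 4 ubiquitin ligase genes for ligand endocytosis, which makes ligands active, 2 rose and 0 fell. With only 4 genes, this count cannot be set apart from the 23.1% called over all genes tested. MIB1 was at 117, 112 and 112 CPM in control cultures and at 155, 152 and 171 CPM in TAK1 shRNA cultures, a log2 fold change of 0.49 (adjusted p = 5.879e-08). NEURL1 was at 10.4, 8.80 and 9.05 CPM and at 19.1, 16.1 and 14.3 CPM, a log2 fold change of 0.81 (adjusted p = 2.611e-06), the largest among the genes called in these lists. Neither gene overlapped between the groups. MIB2 did not overlap either, with a log2 fold change of 0.24 (adjusted p = 0.01083). It was not called because of the fold threshold.

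Of 9 genes for receptor trafficking and turnover, 2 rose and 1 fell, beside 23.1% of all genes tested called in either direction. ITCH, a ubiquitin ligase that acts on the receptor, fell from 128 ± 1.05 to 106 ± 3.54 CPM (log2 fold change -0.27, adjusted p = 9.014e-05). FBXW7, which marks the intracellular domain for degradation, rose from 22.7 ± 1.02 to 27.0 ± 2.25 CPM (0.25, adjusted p = 0.01378), and DTX3, of the Deltex family, rose from 43.9 ± 4.16 to 56.1 ± 5.69 CPM (0.35). NUMB and NUMBL, known inhibitors of Notch, were not called, with log2 fold changes of 0.057 and -0.086. In the nuclear activation complex, RBPJ itself was at 111, 116 and 118 CPM in control cultures and at 109, 118 and 118 CPM in TAK1 shRNA cultures, a log2 fold change of -0.0035 (95% interval -0.11 to 0.10). Its coactivators went both ways. MAML1 rose from 122 ± 3.78 to 152 ± 4.89 CPM (0.32, adjusted p = 1.333e-05), whereas MAML2 fell from 40.0 ± 2.36 to 33.5 ± 3.35 CPM (-0.26), and the acetyltransferase KAT2B fell from 4.02 ± 0.603 to 2.90 ± 0.444 CPM (-0.48, adjusted p = 0.04336).

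Of 11 corepressor genes, the Groucho-family genes TLE1 and TLE3 were called higher and none was called lower. The share called was 18.2%, beside 23.1% of all genes tested. CTBP2 (log2 fold change -0.12, adjusted p = 0.03451) and NCOR1 (-0.14, adjusted p = 0.0422) were lower without overlap but under the fold threshold. The median over the 11 was -0.0042. TLE1 rose from 78.0 ± 3.95 to 95.5 ± 0.762 CPM (log2 fold change 0.29) and TLE3 from 88.2 ± 1.12 to 109.6 ± 4.35 CPM (0.31), with adjusted p of 0.0001009 and 2.587e-05. Of 7 other genes for HES and HEY proteins and NRARP, 3 passed the filter. NRARP, a Notch-induced inhibitor of the nuclear complex, was at 26.1, 19.4 and 19.8 CPM in control cultures and at 30.4, 27.0 and 27.8 CPM in TAK1 shRNA cultures. The groups did not overlap, and the log2 fold change was 0.39 (SE 0.093, adjusted p = 0.002127), in the direction opposite to HES1. HES4 had a log2 fold change of 0.27 with an adjusted p of 0.0708, and HES7 of 0.74 with 0.0818 on 15 to 51 counts per culture. HES3 and HES5 had 0 counts in all 6 cultures, which allows up to 3 counts per library, while HES2 had at most 2 and HEY2 at most 7.

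**Figure D5:**
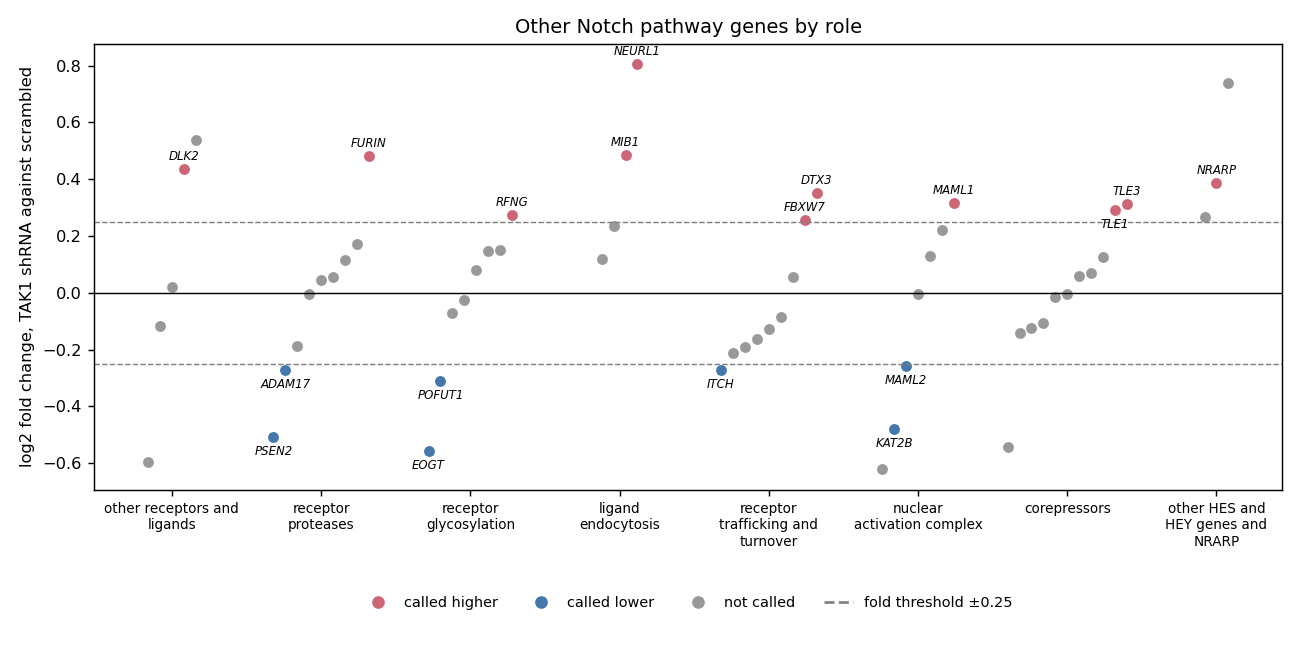
Log2 fold change of the 56 other Notch pathway genes tested, TAK1 shRNA against scrambled shRNA (y axis), by role (x axis; points, genes in order of value within a role; red and blue, called higher and lower; grey, not called; dashed lines, the fold threshold of 0.25 in each direction). Proteases, glycosylation, trafficking and turnover, and the nuclear complex held calls in both directions, and NEURL1 at 0.81 was the largest of the calls.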

How the data were processed

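RNA of 6 RD cultures was sequenced as poly(A)-enriched libraries with paired-end reads. The authors called bases with CASAVA, removed adaptor-containing and low-quality reads, aligned to GRCh38 with STAR, and deposited raw counts of reads per gene, without normalization. The counting program, the annotation release and strand use are not given in the sources used here. The submitters' processing notes name the same tools and build. No other column of per-sample values was found (0 columns without a sample).

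Groups came from the sample labels. Counts were tested with edgeR 4.0.16 in R 4.3.3 (filterByExpr, TMM, glmQLFit and glmQLFTest). A gene was called at a p under 0.05, adjusted by Benjamini-Hochberg over 15935 genes, and a log2 fold change of 0.25 or more in size. The Notch genes were read from that fit. The common biological coefficient of variation was 5.67%. DESeq2 1.42.0, limma 3.58.1 (voom), other normalizations, filters and fold thresholds, a replicate block and the omission of each culture were alternatives. The 3 tests were first tested on simulated data with known changes. Ratios were log2 ratios of CPM within a culture. Lengths and overlaps came from GENCODE 44 and promoter windows from RefSeq. No file with protein sequences was used here.

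Genes named are the 10 members, MAP3K7, pathway genes that passed the call, copies of NOTCH2 and lineage markers, plus some that did not pass, which were chosen after their values were seen, as was FAM120B. The members and the gene lists were chosen with earlier results of these data known.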

Additional observations from a re-analysis of the deposited data

How the results depend on the processing

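DLL1, HES1 and MAP3K7 kept their direction and their call in all 14 alternative settings. The 3 Notch genes called higher became 1 at a fold threshold of 0.5 and 5 with none, and ranged from 1 (without TAK1 shRNA replicate 1) to 4 when a culture was left out. The 1 called lower became 2 with no fold threshold and ranged from 1 to 2 (without TAK1 shRNA replicate 3, which added NOTCH2). For the other pathway genes, the 11 called higher became 1 at a fold threshold of 0.5 and ranged from 9 to 13 when a culture was left out. The 7 called lower became 2 at a fold threshold of 0.5, 12 with none and 3 with library size alone, and ranged from 4 (without scrambled replicate 3) to 7 when a culture was left out. Over all genes, 735 were called higher and 680 lower at a fold threshold of 0.5, and 2734 lower with none.

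The log2 fold change of JAG1 ranged from -0.11 to 0.010 when a culture was left out. HEYL was at 0.016 with the upper quartile, 0.047 with library size alone and 0.0027 with at least 10 counts in every sample, and ranged from -0.054 to 0.031 when a culture was left out. The median log2 fold change of all genes tested was 0.018 with TMM, 0.012 with DESeq2's size factors, 0.035 with the upper quartile and 0.066 with library size alone. The cause of these changes was not tested.

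The labels do not say whether same-numbered cultures were paired. Deviations of same-numbered cultures correlated at 0.037, 0.036 and 0.016 across genes, which with 3 cultures per group cannot settle it. The best-correlated TAK1 shRNA culture had the same number for scrambled replicates 1 and 2. For scrambled replicate 3 it was TAK1 shRNA replicate 2. With the replicate block, DLL1 was at 0.91 and HES1 at -0.69, and 3 Notch genes were called higher and 1 lower, with 1942 and 1848 over all genes. Control levels per kilobase with canonical transcripts, an alternative chosen after seeing the data, moved up by over 1 SD for 8 of the 10 genes, to as much as 124 in place of 49.8 for HEY1. Among the 10, the 4 genes with the fewest counts (JAG1, HES1, DLL1 and HES6) had the largest standard errors, from 0.076 to 0.084. The parts of depth and of replicate spread in these were not separated.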
